A study of Mus musculus with 3 samples.

Results

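Haemoglobin-dominated barcodes of mouse blood were examined, that is, droplet barcodes in which RNA of the globin genes made up more than 50% of the unique molecular identifiers (UMIs, each marking 1 captured RNA molecule). A barcode had to hold at least 500 UMIs, and genes with symbols starting Hba- or Hbb- had to hold over 50% of them, with no limit on gene number or mitochondrial RNA. Members were thus chosen by their measured haemoglobin share and UMI count, and neither is a finding. The rule took 11615 of the 42986 barcodes with 500 or more UMIs. The study sequenced single cells from the mononuclear fraction of C57BL/6 peripheral blood, with 1 library for each of 3 groups. One group was young and received PBS. Both others were aged, and received either PBS or AA, which the title of the series names as ascorbic acid. Treatment lasted 1 month in every group. The blood had been layered over lymphocyte separation medium, a step that removes most red cells, and the labels give no number of mice per library.

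Reticulocytes are the last stage of red cell formation before the mature erythrocyte. They have expelled the nucleus, make no new messenger RNA, translate what is left (mostly globin) and clear their ribosomes and mitochondria in the days after they enter the blood. Haemoglobin is a tetramer of alpha and beta chains around haem, and adult C57BL/6 mice carry paired alpha genes (Hba-a1, Hba-a2) and paired beta genes (Hbb-bs, Hbb-bt). Haem synthesis starts with the erythroid enzyme of Alas2, and Bpgm makes the 2,3-bisphosphoglycerate that lowers the oxygen affinity of haemoglobin.

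Because the globin copies carry most of the RNA here and Alas2 led the red cell genes besides haemoglobin in both aged libraries, the 250 bases before their annotated starts are shown, 5′ to 3′ on the gene's strand, from RefSeq on GRCm38.p6. Capitals mark matches to GATAA, the core bound by GATA factors, to CACCC, bound by KLF factors, to the CCAAT box, and to the TATAA box. Each was searched on both strands, so that a match on the opposite strand reads as its reverse complement, and neighbouring matches may overlap. The window of Hba-a1 lies at chr11:32283422-32283671 on the plus strand, that of Hba-a2 at chr11:32296242-32296491 on the plus strand, that of Hbb-bs at chr7:103827929-103828178 on the minus strand, that of Hbb-bt at chr7:103813924-103814173 on the minus strand and that of Alas2 at chrX:150547167-150547416 on the plus strand.
Hba-a1: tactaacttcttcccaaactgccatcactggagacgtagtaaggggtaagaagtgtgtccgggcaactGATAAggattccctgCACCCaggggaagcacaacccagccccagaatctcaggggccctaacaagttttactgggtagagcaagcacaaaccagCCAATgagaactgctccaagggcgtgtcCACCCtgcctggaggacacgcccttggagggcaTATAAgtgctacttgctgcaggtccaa
Hba-a2: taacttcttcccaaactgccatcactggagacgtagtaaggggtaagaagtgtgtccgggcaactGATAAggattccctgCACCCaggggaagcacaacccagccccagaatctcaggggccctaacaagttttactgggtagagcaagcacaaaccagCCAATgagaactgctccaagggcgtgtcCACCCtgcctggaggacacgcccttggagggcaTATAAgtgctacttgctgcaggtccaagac
Hbb-bs: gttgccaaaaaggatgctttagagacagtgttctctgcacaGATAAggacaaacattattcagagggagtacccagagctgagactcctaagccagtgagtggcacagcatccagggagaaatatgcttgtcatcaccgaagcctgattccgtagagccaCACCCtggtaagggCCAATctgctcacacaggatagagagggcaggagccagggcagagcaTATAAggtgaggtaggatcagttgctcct
Hbb-bt: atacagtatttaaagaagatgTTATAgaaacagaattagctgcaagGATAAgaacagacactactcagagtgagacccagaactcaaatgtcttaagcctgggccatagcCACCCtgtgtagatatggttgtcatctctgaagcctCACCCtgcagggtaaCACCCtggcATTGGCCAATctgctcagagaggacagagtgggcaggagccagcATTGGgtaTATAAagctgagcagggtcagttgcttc
Alas2: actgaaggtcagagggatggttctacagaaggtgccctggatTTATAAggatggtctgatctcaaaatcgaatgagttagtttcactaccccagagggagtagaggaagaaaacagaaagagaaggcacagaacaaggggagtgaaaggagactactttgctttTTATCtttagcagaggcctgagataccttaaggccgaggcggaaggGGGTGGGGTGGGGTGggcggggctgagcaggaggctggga
Each of the 4 globin windows held a match to each of the 4 motifs. Among 32851 RefSeq windows of the same length, 22.6% held GATAA on either strand, 52.0% CACCC, 33.8% CCAAT and 22.8% TATAA. A match is a run of letters and not a measured site. The Alas2 window held no CCAAT, and its GATAA and CACCC matches lay on the opposite strand. The alpha windows were 97.6% identical, differing by 6 edits, since much the same run is offset by a few bases. The beta windows were 69.6% identical. The transcripts showed a like contrast. Although the coding parts of each pair differed by 1 edit (429 bases for alpha, 444 for beta), the rest did not behave alike. After the coding part, the shared 74 bases of the alpha copies were identical, while the 131 bases compared between the beta copies were 70.2% identical. Reads of a 3′ kit fall near that end, so the split between Hba-a1 and Hba-a2 is uncertain and is given only with this limit, while Hbb-bs and Hbb-bt differ there.

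Members numbered 1412 of 10849 barcodes in the young library (13.0%, 95% interval 12.4 to 13.7%), 7689 of 17558 in the aged library (43.8%, 43.1 to 44.5%) and 2514 of 14579 in the aged+AA library (17.2%, 16.6 to 17.9%). The aged library thus held the largest share, and the intervals do not overlap. Members with over 80% haemoglobin were 11.9%, 40.5% and 15.9% of barcodes, and those with at least 100 genes were 11.2%, 25.9% and 9.95%. The aged library came first each time, and the aged+AA library was last with at least 100 genes. Only among members free of any UMI of the white cell genes named below did the young library come first, at 6.98%, 4.36% and 3.42% of barcodes. That filter kept very unequal parts of the members, 53.6%, 9.9% and 19.8%. UMIs of RNA outside cells, given below, were fewest per barcode in the young library. Their part in this filter was not tested. With 1 library per group no test was possible and differences have no replicate check. Only counting error is covered by the intervals, which are exact binomial for shares, exact Poisson for levels and exact conditional binomial for ratios. Mice, red cell removal and library preparation cannot be told apart from age or treatment. Values are given from here on in the order young, aged, aged+AA unless the library is named. Median depth was 9714.5, 4612 and 5673.5 UMIs per member, and haemoglobin held a median of 94.2%, 95.5% and 96.1% of them. Only 533.5, 183 and 197 UMIs per member (medians) came from other genes. Across the whole libraries 64496639, 94944551 and 80424480 UMIs were counted. RNA outside cells, taken from 45000 barcodes per library too shallow to be cells, had a median of 16, 59 and 45 UMIs per barcode, of which 9.97%, 26.8% and 11.5% were haemoglobin. Members shared 7 barcode sequences between libraries.

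**Figure D1:**
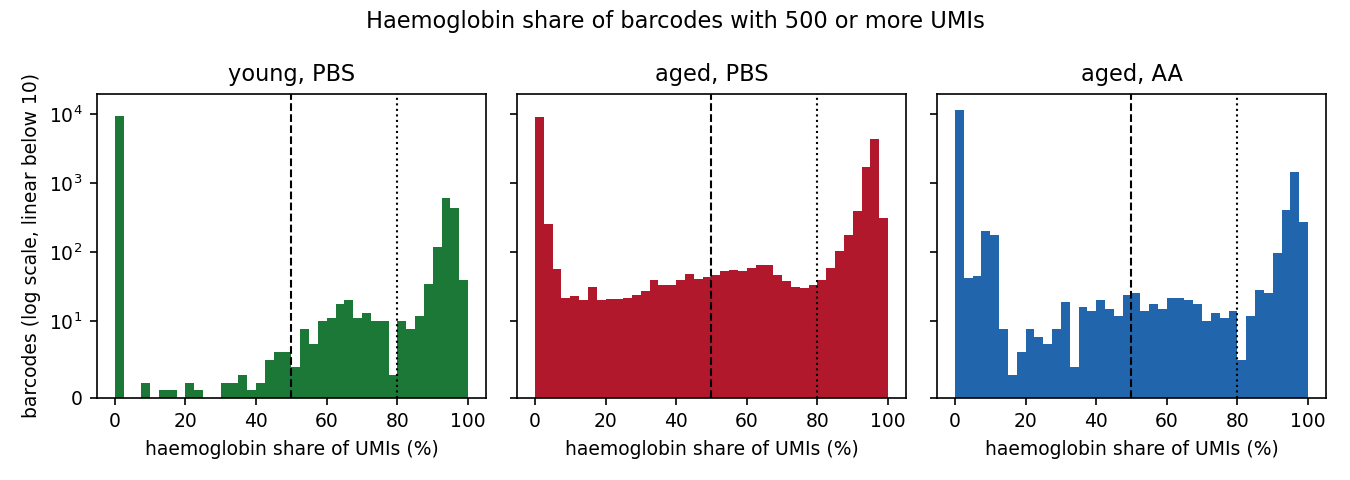
Number of barcodes (y axis, log scale, linear below 10) by the haemoglobin share of their UMIs (x axis, in percent) in each library, for barcodes with 500 or more UMIs. The dashed line marks the 50% limit of membership and the dotted line 80%. Each library has a peak near 0 and a peak above 90%, and the aged+AA library a smaller one at 7.5 to 12.5%. Between 5% and 50% lie 34 young, 568 aged and 603 aged+AA barcodes. Of the last, 205 lie at 7.5 to 10% and 178 at 10 to 12.5%.

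Barcodes near the limits of membership were fewest in the young library. Just inside the haemoglobin limit, at 50 to 55%, lay 13, 101 and 40 barcodes, and just outside it, at 45 to 50%, lay 12, 85 and 36. Both sides had similar gene numbers, with medians of 1792 and 1925 genes in the young library. In the lowest 50 UMIs of the range there were 3, 57 and 18 members, and in the 50 UMIs below it there were 2, 64 and 18 barcodes with over 50% haemoglobin.

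Members with 50 to 80% haemoglobin went against the label. They were 126 young, 578 aged and 203 aged+AA barcodes, with a median of 1364.5, 1248 and 1276 genes. In 96.8%, 94.6% and 92.1% of them at least 3 UMIs came from Ptprc or the white cell marker lists (T, B and NK cells, monocytes, neutrophils, basophils). Those 51 genes summed to 20002, 46337 and 39085 CPM there, against 20287, 49097 and 33415 CPM in white cell barcodes, meaning barcodes with at most 5% haemoglobin. CPM, counts per 1000000, is here and below UMIs per 1000000 UMIs of genes other than haemoglobin. This group is called mixed barcodes. It was 8.92%, 7.52% and 8.07% of the members but held 46.3%, 53.1% and 56.0% of their non-haemoglobin UMIs. For this reason gene levels are given for the 1286 young, 7111 aged and 2311 aged+AA members above 80% haemoglobin, called red cell barcodes, with the ratio over all members beside them where it is a main result.

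White cell RNA was lower but not absent in red cell barcodes. The same 51 genes summed to 1825.5 CPM in young, 13740 CPM in aged and 8610 CPM in aged+AA red cell barcodes, against 13859, 40538 and 30002 CPM in RNA outside cells. At least 3 such UMIs were present in 3.03%, 44.5% and 25.1% of these barcodes. The red cell barcodes of the aged library therefore carried the most white cell RNA. Its part in each comparison was not tested beyond the alternatives given. Basophil genes were at 0 in the young library (5 of 5 genes), and 9 of 10 platelet genes were at 0 there.

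Besides haemoglobin the red cell barcodes held RNA of few genes. Their 10 most abundant other genes took 36.1%, 31.9% and 32.1% of the non-haemoglobin UMIs, against 11.7%, 9.58% and 10.4% in white cell barcodes. Ribosomal protein genes took 6.63%, 11.1% and 11.8%, against 37.4%, 25.8% and 33.2% in white cell barcodes, and mitochondrially encoded genes 2.54%, 2.14% and 2.55%. Of 496 genes with at least 50 counts in each library, 206 stood at least 2 times, 107 at least 10 times and 34 at least 100 times above white cell barcodes in every library. This set was ranked on these cells and is a description. The 107 genes, called red cell genes below, took 47.5% (47.4 to 47.6%), 31.9% (31.8 to 32.0%) and 37.7% (37.6 to 37.8%) of the non-haemoglobin UMIs of red cell barcodes, 0.768%, 1.49% and 0.943% of those outside cells and 0.522%, 0.763% and 0.565% of those in white cell barcodes. Set against haemoglobin, they gave 28.9, 15 and 16.1 UMIs per 1000 haemoglobin UMIs. Both aged libraries stood below the young one on this scale, which leaves out white cell RNA. Haemoglobin share chose these barcodes and the 107 genes were chosen in them, so these values are a description only. Among barcodes from 5000 to below 10000 UMIs the values were 25.8, 17.0 and 17.2.

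Globin RNA was adult. Beta RNA exceeded alpha RNA in each library: Hba-a1 and Hba-a2 together held 32.9% of alpha plus beta UMIs in young members, 33.8% in aged and 34.0% in aged+AA members. Outside cells the alpha share was lower, at 26.4%, 27.4% and 25.7%. Within alpha, Hba-a1 was assigned 55.1%, 56.9% and 56.8%, a split that rests on near-identical sequences. Within beta, Hbb-bs held 79.3%, 83.7% and 83.4%. Counting error is small here (79.2 to 79.3% for Hbb-bs in the young library), and the spread between mice is unknown.

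The share of Hbb-bs followed the depth of the barcode in each library. In young red cell barcodes it was 92.2% between 500 and 1000 UMIs, 85.4% between 1000 and 2000, 83.0% between 2000 and 5000, 80.6% between 5000 and 10000 and 77.8% above 10000. In the aged library it was 96.3%, 93.6%, 86.3%, 81.6% and 81.5% over the same steps, and in the aged+AA library 96.4%, 94.9%, 88.8%, 81.9% and 79.0%. In shallow barcodes of both aged libraries nearly all beta RNA was thus Hbb-bs, and the libraries were closest between 5000 and 10000 UMIs. Outside cells it was 79.9%, 86.2% and 86.2%. The 2 lowest steps held 19 and 19 young, 386 and 729 aged and 89 and 189 aged+AA barcodes. Among members with 2000 or more UMIs, the 10th and 90th percentiles of this share were 74.9% and 85.0% in the young, 78.1% and 92.7% in the aged and 77.6% and 94.0% in the aged+AA library.

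**Figure D2:**
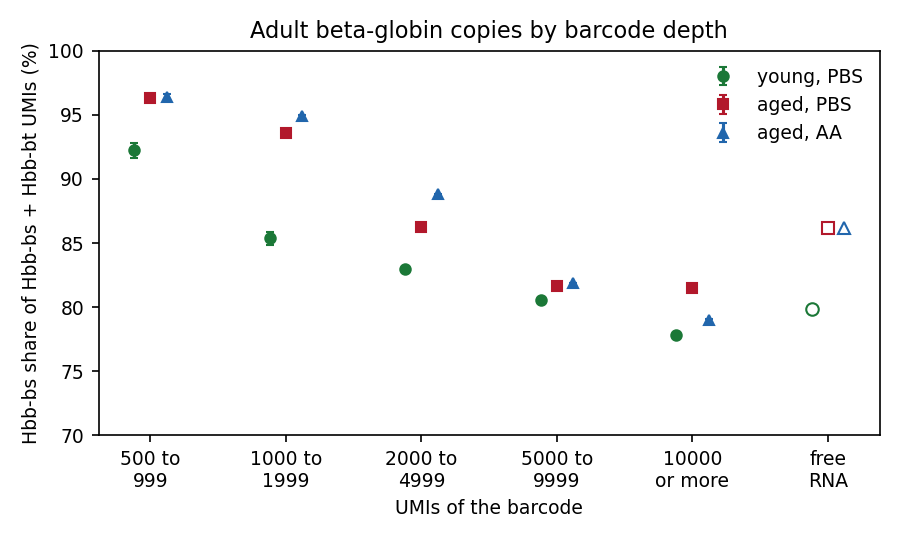
Share of Hbb-bs among Hbb-bs and Hbb-bt UMIs (y axis, percent, starting at 70%) by the UMIs of the barcode (x axis) in red cell barcodes of each library. Filled points are sums over barcodes with 95% exact binomial intervals and open points are RNA outside cells. Each library descends from over 92% in the shallowest barcodes to about 80% from 5000 UMIs.

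Other globin genes were rare. Hbq1a and Hbq1b, theta-globin genes of the alpha cluster, had 37.1 and 39.9 UMIs per 1000000 member UMIs in the young library, 13.9 and 15.9 in the aged and 15.3 and 19.2 in the aged+AA library. Hbb-bh1, expressed in the embryo, had 26 young, 35 aged and 7 aged+AA UMIs. Hbb-y had 7, 9 and 3, Hba-x had 3, 12 and 2, and Hbb-bh2 had 4, 1 and 3. These counts are out of 13391925, 36011773 and 14337900 member UMIs.

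Haem synthesis genes were led by Alas2, on chromosome X. It stood at 31902 CPM in young, 30719 CPM in aged and 46007 CPM in aged+AA red cell barcodes. Pooled in this way, the 2 PBS libraries were close and the aged+AA library was higher. The ratio of aged to young was 0.963 (0.947 to 0.979), and that of aged+AA to aged 1.5 (1.47 to 1.52). Over all members, mixed barcodes included, these ratios were 0.832 and 1.42. The PBS libraries were less close at a like haemoglobin share. At 90 to 95% haemoglobin Alas2 stood at 28675 CPM in young and 23323 CPM in aged barcodes. Above 95% it stood at 45945 CPM in young and 37218 CPM in aged barcodes. Fech, which inserts iron into the ring to complete haem, stood at 5064, 4015 and 5314 CPM, and Slc25a39, a mitochondrial carrier, at 5895, 3726 and 5382 CPM. Urod, an enzyme of the middle of the pathway, was scarcer, at 564, 144 and 190 CPM, an aged over young ratio of 0.256 (0.215 to 0.304). Among barcodes from 5000 to below 10000 UMIs this ratio was 0.535 (0.408 to 0.706), no longer past 2-fold. Tmem14c, a mitochondrial porphyrin carrier, had 2, 61 and 10 counts and stood below its level outside cells in every library.

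Of the 13 haem synthesis genes 6 had the 50 counts needed in red cell barcodes. For aged over young, 1 was at least 2-fold higher and 2 at least 2-fold lower, where 56.9% and 6.75% of all 1838 genes measured were. For aged+AA over aged none was higher and 1 was lower, with 0.33% and 12.6% of 1819 genes as background. The list's median log2 ratio was -0.50 and 0.43, against 1.39 and -0.23 over all genes. Over all members the shares of genes past 2-fold were 42.6% higher and 2.65% lower between the PBS libraries (2284 and 142 of 5366 genes), and 0.485% higher and 9.48% lower for aged+AA over aged (26 and 508 of 5357). Both comparisons share the aged library, so they are not independent. A gene was measured if the higher library alone held 50 counts. Red cell barcodes held 673242, 1427243 and 515443 non-haemoglobin UMIs, so genes could enter through the aged library only. This can raise the share higher for aged over young and the share lower for aged+AA over aged. Both are thus a loose yardstick for the lists. At equal library depth these calls over all members fell from 2284 to 985 and from 508 to 211.

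Iron genes included the ferritin chains, which store iron, at high levels. Ftl1 stood at 25876, 18930.2 and 28414 CPM and Fth1 at 14966, 10223 and 13705 CPM, the aged library being lowest for both. Slc25a37, mitoferrin, which brings iron into mitochondria, stood at 4166, 4937 and 4511 CPM, with the aged library highest. Slc48a1, a haem transporter, stood at 2172, 1106 and 1903 CPM, and Glrx5, which helps build iron-sulphur clusters, at 4743, 2321 and 2266 CPM. The aged over young ratio of Glrx5, 0.489, was 0.646 from 5000 to below 10000 UMIs and so no longer past 2-fold. Of 8 list genes measured, 1 was at least 2-fold higher and 1 lower for aged over young, where 56.9% and 6.75% of all genes were. No iron gene passed either way for aged+AA over aged, beside 0.33% and 12.6% of all genes. List median log2 ratios were -0.45 and 0.14. The transferrin receptor gene Tfrc, which reticulocytes lose as they mature, was seen in 0.561%, 0.167% and 0.295% of red cell barcodes thinned to 2000 UMIs. White cell barcodes showed it more often, in 8.95%, 4.47% and 4.42%. Before thinning red cell barcodes showed it in 1.63%, 0.506% and 0.736%. Thinning equalised all UMIs and not those of genes other than haemoglobin. Thinned red cell barcodes held a median of 65, 59 and 53 genes, and white cell barcodes 803, 968 and 889. The membership rule leaves red cell barcodes few UMIs besides haemoglobin, so this order does not measure a loss of Tfrc.

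Of 18 membrane and cytoskeleton genes measured, 6 were at least 2-fold lower for aged over young and none at least 2-fold higher, where 6.75% and 56.9% of all genes were. The list's median log2 ratio of -0.68 was close to the -0.66 of the 107 red cell genes. None of 17 passed either way for aged+AA over aged, beside 0.33% and 12.6% of all genes. Epb41, which encodes protein 4.1 of the membrane skeleton, was higher in the aged library. It stood at 5989, 8799 and 4937.5 CPM, 1.47 times the young level in the aged library (1.42 to 1.52) and 0.561 times the aged level in the aged+AA library (0.538 to 0.586). Slc4a1, the band 3 anion exchanger, stood at 1349, 856 and 598 CPM. Cd24a, a surface glycoprotein of maturing red cells, stood at 7268, 4046 and 4773 CPM, and Rhd, of the Rhesus complex, at 199, 36.4 and 66.0 CPM. Mpp1, a membrane-associated guanylate kinase, stood at 2222, 758 and 1114 CPM. From 5000 to below 10000 UMIs the aged over young ratio of Rhd was 0.356 and that of Mpp1 0.540, the latter no longer past 2-fold.

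Of 16 redox and gas exchange genes measured, 5 were at least 2-fold lower and 4 at least 2-fold higher for aged over young, where 6.75% and 56.9% of all genes were. For aged+AA over aged none was higher and 3 were lower, beside 0.33% and 12.6% of all genes (median log2 ratios -0.56 and 0.00). Bpgm stood at 49547 CPM in young, 19086 CPM in aged and 32291 CPM in aged+AA barcodes. The aged over young ratio was 0.385 (0.379 to 0.391) and the aged+AA over aged ratio 1.69 (1.66 to 1.72). Over all members these were 0.335 and 1.60. Car2, carbonic anhydrase 2, stood at 7030 CPM in young, 1630.4 CPM in aged and 2309 CPM in aged+AA barcodes (aged over young 0.232, 0.221 to 0.244). Thinned to 2000 UMIs, it was seen in 35.7%, 8.81% and 10.5% of red cell barcodes, and before thinning in 58.2%, 14.8% and 18.1%. White cell barcodes thinned alike showed it in 2.84%, 2.42% and 2.91%. Thinning left out 38, 1115 and 278 shallower red cell and 601, 888 and 831 white cell barcodes. The median depths before thinning were 9471, 4460 and 5493 UMIs in red cell and 4342, 3444 and 4016 UMIs in white cell barcodes. Prdx2, the abundant peroxiredoxin of red cells, stood at 9970, 4499 and 5649.5 CPM, and Blvrb, a flavin and biliverdin reductase, at 6192, 2433 and 3025 CPM. Gpx1, a glutathione peroxidase, stood at 17241, 9364 and 8647 CPM. In the window from 5000 to below 10000 UMIs the aged over young ratios of Prdx2 and Blvrb were 0.740 and 0.684 in place of 0.451 and 0.393, no longer past 2-fold, and that of Gpx1 was 0.960 in place of 0.543. Gsr, the glutathione reductase gene, was among those at least 2-fold higher, at 5.94, 151 and 15.5 CPM, and stood below its level outside cells (18.9, 436 and 80.6 CPM).

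Glycolysis genes apart from Bpgm were scarce. The list's median log2 ratio for aged over young was 1.81, against 1.39 over all genes. Of 9 genes measured 6 were at least 2-fold higher, a share near the 56.9% of all genes, and 1, Bpgm, was lower. Aldoa, aldolase A, and Gapdh were in the first group, at 17.8 and 47.5 CPM in the young and 120 and 172 CPM in the aged library, all below the level outside cells (133 and 379 CPM in the young, 277 and 451 CPM in the aged library). Outside the list's main path, Taldo1, transaldolase of the pentose phosphate pathway, stood at 1907, 1014 and 1277 CPM.

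Of the lists of red cell functions, that of ubiquitin genes had the largest sum, at 122053, 70442 and 91836 CPM. Maturing reticulocytes destroy many of their proteins by this route. Ubb, polyubiquitin B, stood at 56382 CPM in young, 19971 CPM in aged and 35179 CPM in aged+AA barcodes. Its aged over young ratio was 0.354 (0.349 to 0.360) and its aged+AA over aged ratio 1.76 (1.73 to 1.79), and over all members these were 0.329 and 1.63. Mkrn1, a ubiquitin ligase, stood at 32202, 22909 and 26674 CPM. Ube2l6, the conjugating enzyme also used for ISG15, stood at 12386, 12489 and 15627 CPM, and Rnf10 at 3694, 3608 and 3657 CPM, nearly the same in each library. Trim10, a gene of terminal red cell differentiation, stood at 2063, 494 and 609 CPM, an aged over young ratio of 0.239 that was 0.480 in the same window. For aged over young, none of 16 list genes was at least 2-fold higher and 4 were lower (56.9% and 6.75% of all genes, list median log2 ratio -0.52). No ubiquitin gene passed for aged+AA over aged (0.33% and 12.6% of all genes, list median 0.24).

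Genes of organelle removal were also abundant. Bnip3l (NIX), the receptor by which reticulocytes deliver mitochondria to autophagosomes, stood at 11146 CPM in young, 10411 CPM in aged and 10787 CPM in aged+AA barcodes. Its ratios were 0.934 (0.908 to 0.960) and 1.04 (1.00 to 1.07). Among the genes of autophagosome coats, Map1lc3b stood at 7552, 4849 and 5341 CPM, Gabarapl2 at 9490, 6728 and 7320 CPM and Gabarap at 992, 619 and 749 CPM. None of 8 list genes measured passed 2-fold in either comparison. Among all genes 56.9% were higher and 6.75% lower for aged over young, and 0.33% and 12.6% for aged+AA over aged. The list's median log2 ratios were -0.66 and 0.13, close to or below those of the 107 red cell genes (-0.66 and 0.24).

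Among translation genes, Eif5 stood at 4373 CPM in young, 1436 CPM in aged and 2155 CPM in aged+AA barcodes and Eif1 at 8343, 6176 and 7811 CPM. The aged over young ratio of Eif5 was 0.328, and 0.588 in the window from 5000 to below 10000 UMIs, which ends its 2-fold call. Pabpc1, the poly(A) binding protein, stood at 6931, 6405 and 4121 CPM. Eef1a1, elongation factor 1, was far below its level outside cells, at 867, 1859 and 2730 CPM against 6091, 5377 and 9094 CPM. Of the 10 genes measured 2 were at least 2-fold higher and 1 lower for aged over young, beside 56.9% and 6.75% of all genes. No translation gene passed for aged+AA over aged, beside 0.33% and 12.6% of all genes. Regulators of red cell genes were scarce: Lmo2, a partner of the GATA complex, stood at 857, 355 and 405 CPM and E2f2, a cell cycle factor of late erythroblasts, at 355, 502 and 291 CPM. The aged over young ratio of Lmo2 was 0.414, and 0.539 in that window. Of 7 factors measured 1 was at least 2-fold higher and 1 lower for aged over young, and none for aged+AA over aged. The same shares of all genes apply to these counts.

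Some genes named for interferon or the cell cycle were red cell genes here. Isg15, a ubiquitin-like modifier, stood at 3751, 2007 and 2316 CPM, against 10.7, 59.7 and 17.4 CPM in white cell barcodes. Ube2c, a mitotic ubiquitin-conjugating enzyme, stood at 3596, 1990 and 2392 CPM, against 2.85, 15.4 and 5.93 CPM in white cell barcodes. The genes Isg20, Rsad2 and Tent5c, and Tfrc, Ifit3, Mki67, Hbq1a and Hbq1b in other sentences, were chosen after their values were seen. The first 3 were among the abundant genes. Isg20, an exonuclease gene, stood at 9130 CPM in young, 5984 CPM in aged and 8257 CPM in aged+AA barcodes, Rsad2 (viperin) at 5674, 3751 and 3502 CPM and Tent5c, a poly(A) polymerase, at 7393, 9887 and 7869 CPM. Ifit3 was seen in 0.0801%, 0.050% and 0.0492% of thinned red cell barcodes, and in 0.977%, 2.26% and 1.39% of white cell barcodes. Before thinning red cell barcodes showed it in 0.156%, 0.113% and 0.130%. Mki67, a marker of dividing cells, was seen in 0.0801%, 0.150% and 0.148% of thinned and 0.933%, 0.323% and 0.260% of unthinned red cell barcodes, and in 0.284%, 1.03% and 0.433% of thinned white cell barcodes. Both were below the white cell share after thinning, with the same limit as for Tfrc. In the young library the Mki67 intervals overlapped (0.00203 to 0.446% in red cell and 0.184 to 0.419% in white cell barcodes). Unthinned white cell barcodes showed Mki67 in 0.606%, 2.27% and 1.08%, so in the young library the order was the opposite before thinning. Of 13 interferon list genes measured for aged over young, 5 were at least 2-fold higher and 3 lower (56.9% and 6.75% of all genes). For aged+AA over aged none of 11 was higher and 5 were lower, beside 0.33% and 12.6% of all genes. List median log2 ratios were 0.38 and -0.98. Ifitm3, a membrane protein also high in monocytes, stood at 679, 884 and 415 CPM, with 96.3, 2010 and 109 CPM outside cells. From 5000 to below 10000 UMIs its aged over young ratio was 0.787 in place of 1.30, and that of aged+AA over aged 0.581 in place of 0.470, no longer past 2-fold.

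**Figure D3:**
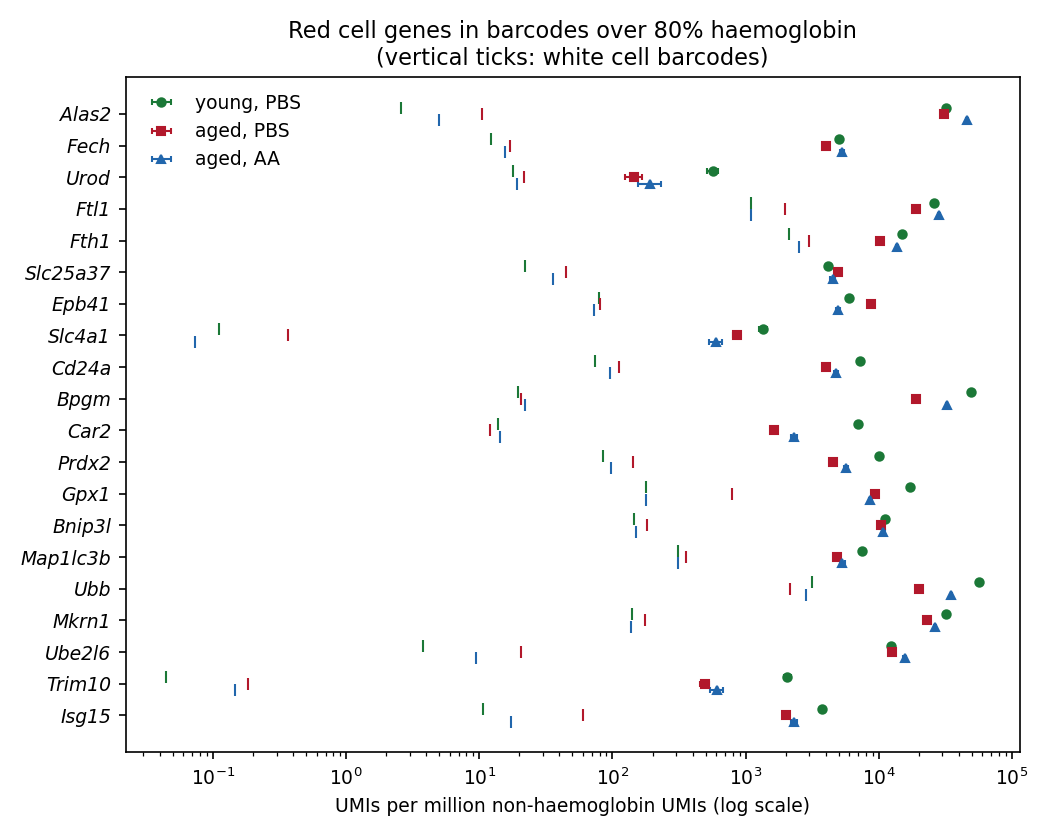
Level of 20 abundant or named genes (x axis, CPM, log scale) in red cell barcodes of each library, with 95% exact Poisson intervals. Vertical ticks give white cell barcodes in the same colour. Every gene lies to the right of its ticks, and Bpgm, Ubb and Car2 are highest in the young library.

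Other abundant genes have varied roles. Oaz1, an inhibitor of polyamine synthesis, stood at 22601, 18728 and 21968 CPM, and Sec61g, of the protein translocon, at 21456, 15786 and 14636 CPM. Tpt1 stood at 10313, 10137 and 15445 CPM and the histone gene H3f3a at 11532, 7103 and 8544 CPM. Ftl1, Fth1, Tpt1 and H3f3a have processed pseudogenes, so part of their reads may have been lost or counted elsewhere and their levels are uncertain. Gm42418, which overlaps the ribosomal RNA repeat and is taken as a measure of ribosomal RNA, stood at 71779.5, 137726 and 77933 CPM. Outside cells it stood at 85967, 15089 and 12877 CPM and in white cell barcodes at 12528, 9694 and 7470.5 CPM, so that in the young library its share outside cells was the higher one. AY036118, which overlaps it too, stood at 25655, 19002 and 15119 CPM.

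Of the 107 red cell genes, 93 stood lower and 14 higher in the aged than in the young library. None was at least 2-fold higher and 30 were at least 2-fold lower, beside 56.9% and 6.75% of all 1838 genes measured. Their median ratio was 0.632. In the comparison of aged+AA with aged, 76 stood higher and 31 lower, with a median ratio of 1.18. None passed 2-fold either way, beside 0.33% and 12.6% of all 1819 genes. These shares are not a like background, since all genes needed 50 counts in the higher library alone. The red cell genes needed 50 counts in every library. They were chosen in these same data, by that minimum and a level above white cell barcodes in every library. The aged library held the most non-haemoglobin UMIs, so genes low in either other library could drop out more readily. This can favour genes lower in the aged library in both comparisons, and its part in the counts was not tested. Over all members the median ratios of the red cell genes were 0.549 and 1.10. As all these values are shares of a library's non-haemoglobin RNA, scaling all members to the median of the red cell genes, an alternative added after the data were seen, put Alas2 at 1.52, Bnip3l at 1.505 and Ftl1 at 1.20 times the young level in the aged library, above 1 where the main scaling put them below. Bpgm and Ubb stayed below 1 there, at 0.611 and 0.6. The most extreme aged over young ratios included white cell genes. Lyz2, lysozyme of monocytes and neutrophils, had 4 counts in young, 2319 in aged and 38 in aged+AA red cell barcodes, and S100a9, a calprotectin subunit, had 16, 2697 and 248. In the aged library Lyz2 stood at 1625 CPM in red cell barcodes and 5045 CPM outside cells, and S100a9 at 1890 and 5563 CPM. All 7 neutrophil, 7 monocyte and 11 B-cell genes measured were at least 2-fold higher for aged over young, beside 56.9% of all genes, as were 2 of 6 T-cell and 1 of 2 NK-cell genes. For aged+AA over aged, 6 of 7 neutrophil and 5 of 7 monocyte genes were at least 2-fold lower, beside 12.6% of all genes. No B-, T- or NK-cell gene passed. No platelet or basophil gene reached 50 counts.

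Immediate early genes, which are switched on within minutes of a stimulus in nucleated cells, were mixed. Their 17 genes summed to 4254 CPM in young, 5349 CPM in aged and 5725 CPM in aged+AA red cell barcodes, and to 7444, 8983 and 11056 CPM outside cells. Jund alone made up most of the sum in red cell barcodes in the young library, at 3647, 2751.5 and 2879 CPM, and stood above its level outside cells in each library (1669, 1226 and 1959 CPM). Junb stood at 128, 447 and 642 CPM and Jun at 46.0, 68.7 and 146 CPM, both below their level outside cells (1257, 1394 and 2056 CPM for Junb, 253, 215 and 372 CPM for Jun). Of 16 measured, 14 were at least 2-fold higher for aged over young, beside 56.9% of all genes. For aged+AA over aged 1 was higher and 4 were lower, beside 0.33% and 12.6% of all genes. Of 5 heat shock genes measured 2 were higher and 1 lower for aged over young. Of 3 late erythroblast cell cycle genes 2 were higher, where 56.9% of all genes were higher and 6.75% lower. Neither list had a gene past 2-fold for aged+AA over aged. No gene of ascorbate uptake and recycling reached 50 counts, and the 9 together summed to 28.2, 56.1 and 50.4 CPM. Of 81 ribosomal protein genes measured 28 were at least 2-fold higher for aged over young, a lower share than the 56.9% of all genes, and 9 lay above the median of all genes. None passed for aged+AA over aged. Of 12 mitochondrially encoded genes none passed for aged over young, and 1 was lower for aged+AA over aged, beside 12.6% of all genes.

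Depth differed between libraries, so the comparison was repeated among red cell barcodes from 5000 to below 10000 UMIs, a window chosen after the data were seen. These were 584 young, 2771 aged and 1254 aged+AA barcodes with median depths of 8411.5, 6151 and 6901 UMIs. Aged over young ratios of some genes moved toward 1. That of Car2 went to 0.399, beside those already given for Trim10, Urod, Prdx2 and Gpx1. Bpgm and Ubb moved less, to 0.447 and 0.485. Alas2 and Ftl1 moved away from 1, from 0.963 to 0.930 and from 0.732 to 0.630. Bnip3l and Slc4a1 crossed from below to above 1, at 1.05 and 1.04. The aged+AA over aged ratio of Slc4a1 was 0.581. Epb41 was at 1.56 between the PBS libraries and at 0.528 for aged+AA over aged. The aged+AA over aged ratios of Bpgm, Ubb and Alas2 were 1.57, 1.57 and 1.51. Young barcodes remained deeper within this window, so depth was narrowed and not equalised.

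**Figure D4:**
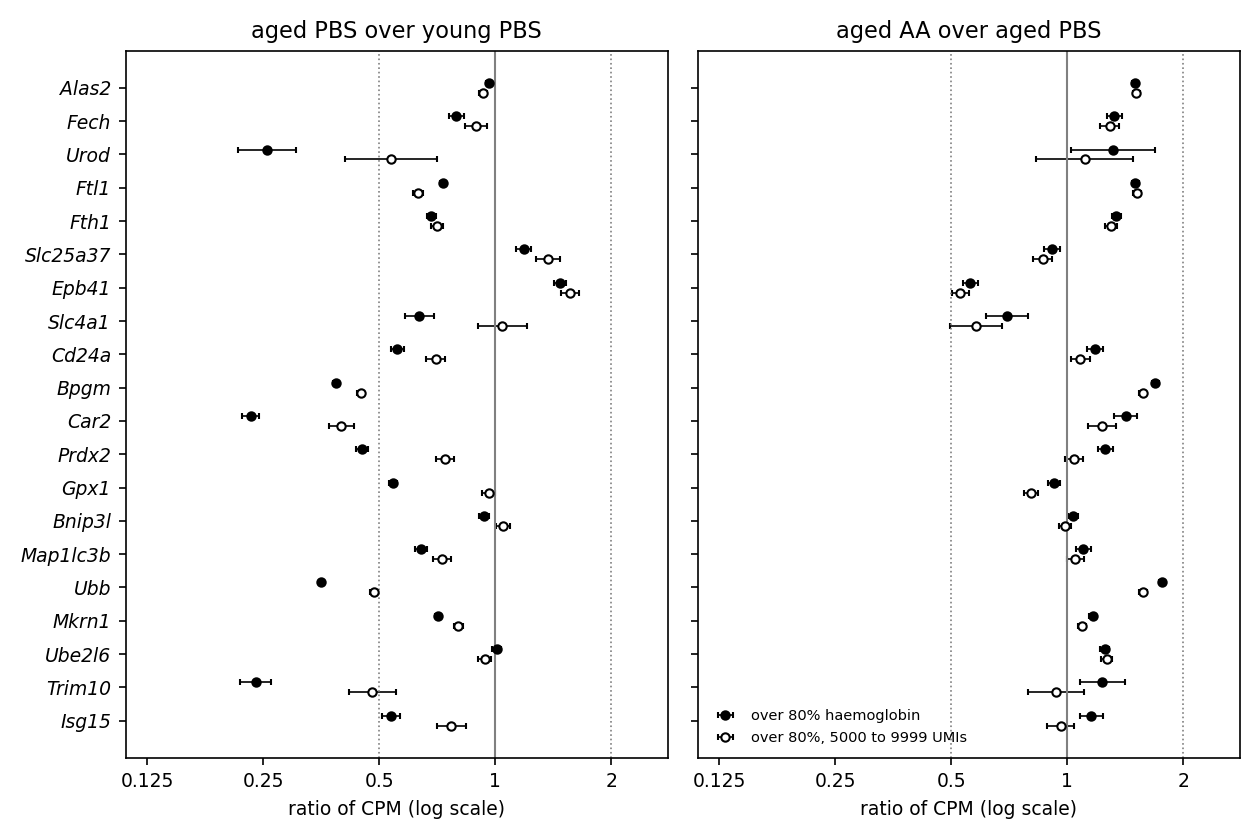
Ratios of CPM (x axis, log scale) of 20 genes for aged PBS over young PBS (left) and aged AA over aged PBS (right), with 95% exact conditional binomial intervals. Filled points are all red cell barcodes and open points those from 5000 to below 10000 UMIs, with dotted lines at 0.5 and 2. Car2, Urod and Trim10 lie nearer to 1 in the narrower depth window, while Bpgm and Ubb stay below 0.5 on the left.

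Red cell barcodes also differed among themselves within each library. With 90 to 95% haemoglobin, Car2 stood at 9012, 3134 and 5180.3 CPM, and with over 95% at 1715, 741 and 1006 CPM. Gpx1 went from 21296, 14032 and 17609 CPM to 6884, 6858 and 4726 CPM. Ubb went from 65489, 26035 and 51523 CPM to 38132, 17433 and 29078 CPM. Alas2 went the other way, from 28675, 23323 and 33048 CPM to 45945, 37218 and 54385 CPM, as did Ftl1, from 23277, 14356 and 18959 CPM to 37021, 22890 and 34248 CPM. Between these 2 ranges the differences pointed the same way in each of the 3 libraries. At 80 to 90% haemoglobin lay 66, 380 and 71 barcodes, and Car2 stood at 6513, 1215 and 1703 CPM there. Gpx1 stood at 14475, 5397 and 4571 CPM and Ubb at 33715, 7364 and 11964 CPM. All were below their level at 90 to 95%, so none of them fell steadily with haemoglobin share. Alas2 and Ftl1 were also lower at 80 to 90% than at 90 to 95% in each library. Barcodes above 95% made up 34.1%, 60.3% and 69.1% of the members. Within each range Car2 was highest in the young library and lowest in the aged one. Alas2 was also lowest in the aged library within each range, and highest in the aged+AA library except at 80 to 90%.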

How the data were processed

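Droplet libraries had been prepared with 10x 3′ v3 chemistry. The deposited tables hold unnormalised counts of UMIs, by gene and barcode and for every barcode, and name Cell Ranger 4 in their file headers. In the submitters' processing notes mm10 and Seurat 3.1.0 appear. Cell filters are not given in the sources used here, and no doublet caller was run.

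UMIs were summed over barcodes of each library in Python 3.11.15 with numpy 2.4.6, scipy 1.17.1 and pandas 2.3.3, and scaled to CPM over non-haemoglobin UMIs. A ratio needed 50 counts in the higher library and was called from 2-fold. Intervals have a level of 95%. The design took all members as the main set, and gene levels are given for those above 80% haemoglobin because the others carry white cell RNA. The ratio step was run on counts simulated with counting error only. That checks its arithmetic and says nothing on the spread between mice or on RNA outside cells. Genes were named by a rule: the markers, the 25 most abundant, the 10 most extreme ratios each way per comparison, in each of 21 lists the 4 most abundant and the extreme members, and the minor globins. A few genes so named are not reported here. The members, lists and red cell genes were chosen with earlier results of these data known. Promoters came from RefSeq (GRCm38.p6) and transcripts from GENCODE. Figures used matplotlib 3.10.9.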

Additional observations from a re-analysis of the deposited data

How the results depend on the processing

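With 1 library per group no replicate could be left out and nothing was tested. No paired analysis was possible because each group has 1 library and the labels give no shared replicate numbers. Depth limits genes under 50 counts and barcodes under 2000 UMIs. Added alternatives, chosen after seeing the data, were the window from 5000 to below 10000 UMIs and scaling to the median of the red cell genes. No named gene whose ratio was past 2-fold over all members changed its direction under any alternative. For 122 ratios of named genes, 1208 alternative values lay within the interval of the main value and 719 outside it. The 1208 include the limits of 20 and 200 counts, which leave the ratio of a gene unchanged and so lie within by construction. For the list medians 274 stayed on the same side of 0 and of 2-fold, and 43 did not. The cause of these differences was not tested.

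Values follow in the order young, aged, aged+AA. The share of barcodes was 11.9%, 40.5% and 15.9% with over 80% haemoglobin, 11.2%, 25.9% and 9.95% with at least 100 genes, 6.98%, 4.36% and 3.42% without any white cell UMI, and 5.38%, 15.8% and 8.60% in the depth window. With at least 1000 UMIs the aged share was 42.98%. The alpha share of globin was 33.02%, 33.88% and 34.2% with at least 100 genes, 32.7%, 33.81% and 33.5% without white cell UMIs, 31.4%, 34.06% and 34.11% in the depth window, 32.998%, 34.0001% and 34.13% with RNA outside cells subtracted, and 32.5%, 33.97% and 34.096% with each member thinned to 500 UMIs. It was 32.985% in young members over 80%, and 33.799% in aged members with 1000 UMIs and 33.811% at equal library depth. The Hbb-bs share of beta globin was 79.209%, 83.798% and 83.486% over 80%, 78.7%, 82.1% and 81.2% with 100 genes, 79.5%, 84.2% and 83.6% without white cell UMIs, 80.6%, 81.6% and 81.9% in the depth window, and 80.03%, 85.8% and 85.755% thinned to 500 UMIs. For aged and aged+AA it was 83.617% and 83.347% with 1000 UMIs, and 83.649% and 83.378% after subtraction.

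Counts below are not shares, since the number of genes measured changes between settings. It is given only for all members and those over 80%. The 2284 genes higher for aged over young were 42.6% of 5366, and the 1046 over 80% were 56.9% of 1838. The 508 genes lower for aged+AA over aged were 9.48% of 5357, and the 229 over 80% were 12.6% of 1819. Genes at least 2-fold higher for aged over young numbered 2284 over all members, 1046 over 80%, 56 without white cell UMIs, 321 in the depth window and 278 after subtraction. They numbered 156 with members thinned, 985 at equal library depth, 3538 from 20 counts, 517 from 200 counts and 4387 scaled to the red cell genes. Those lower numbered 142, then 35 in the window, 59 thinned, 260 scaled by the median of gene ratios, 88 from 200 counts and 24 scaled to the red cell genes. For aged+AA over aged those higher numbered 26, then 6 over 80%, 4 without white cell UMIs, 5 in the window, 13 after subtraction, 2 thinned, 89 from 20 counts, 6 from 200 counts and 14 scaled to the red cell genes. Those lower numbered 508, then 229, 7, 71, 228 and 47 under the first 5 of these settings, 211 at equal library depth, 990 from 20 counts and 103 from 200 counts. The median log2 ratio of the red cell genes for aged over young lay between -1.18 and -0.43 under all settings but scaling to those genes, which sets it to 0.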
